A study of Homo sapiens with 17 samples.

Results

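The genes described here are 51 regulators and workers of the cell division cycle, followed through 17 RNA libraries of K562, a chronic myeloid leukaemia cell line. They were taken as a named list: 20 genes used at the G1/S transition and in DNA synthesis, 28 used in G2 and mitosis (G2/M), and TUBA1B, TUBB and STMN1, tubulin and stathmin genes that were counted with neither phase. All 51 were found among the 57638 genes of the annotation. For each gene, the estimated reads of its transcripts were summed and expressed as CPM, that is, relative to all reads in genes of the library.

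Cells were electroporated with CRISPR plasmids designed to activate the gene named on the label, were given an antisense oligonucleotide (a short synthetic strand that binds RNA), and were processed on day 6. All libraries share this history, since the labels describe no untreated cells. The labels Neg, GFP and RFP name no human gene, and these 3 libraries served as the reference. The GOLGA8N group held the libraries labelled GOLGA8N 1, GOLGA8N 2 and 23-GOLGA8N, and the LAPTM4B group held LAPTM4B 1, LAPTM4B 2 and 22-LAPTM4B. The other 8 labels had 1 library each: 21-CTPS2, 20-ARSF, TTR, TRPC5OS, E7, ADORA2A, UBE2V1 and COL6A6. The 4 labels with a number before the gene were also set against the 13 without one; the sources used here do not give what the number, Neg or E7 stands for. Nothing says that libraries of 1 group came from separate cultures, so a p-value measures the spread among these libraries alone, and that may be technical. Below, each library is called by its label.

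A dividing cell first commits to DNA synthesis through cyclin D with CDK4 and cyclin E with CDK2, which release E2F transcription factors. It loads the MCM helicase onto replication origins with CDC6 and CDT1, and then copies the DNA with enzymes that are fed by ribonucleotide reductase and thymidylate synthase. Cyclin A and cyclin B with CDK1 drive the later phases, in which Aurora and Polo-like kinases build the spindle, the checkpoint holds the chromosomes back and the anaphase-promoting complex releases them. Many G2/M genes carry a CHR element near their start, at which the DREAM and MuvB complexes bind, and many G1/S genes carry E2F elements. K562 lacks functional p53 and cycles rapidly in culture.

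The promoters of the members showed this division in their sequence. RefSeq promoter windows (GRCh38.p14, 250 bases before to 50 after each start) were found for 40 of the 51 members. On either strand, the CHR letters TTTGAA stood in 15 of 25 windows of G2/M members (60%), in 1 of 23 windows of G1/S members (4.35%) and in 15.2% of all 35116 windows. The CCAAT box (CCAAT) stood in 88% of the G2/M windows, 65.2% of the G1/S windows and 34.6% of all windows. One of 3 E2F spellings (TTTCCCGC, TTTGGCGC or TTTCGCGC) stood in 39.1% of the G1/S windows, 12% of the G2/M windows and 2.74% of all windows. Some genes have several windows that overlap, and a match is a run of letters, not a shown binding site. CCNB1 and AURKB, of the G2/M members, had no CHR letters, and CDK1 and CENPA had both CHR and E2F letters. MCM2 and CDC6 had E2F letters, but none wholly before the start. Stretches of 30 bases are printed for some members described below that had a match before the start. They are given on the strand of the gene, with the matching letters in capitals. In the first set the capitals are the CHR letters, which KIF11 and TOP2A hold as the reverse complement.
PLK1: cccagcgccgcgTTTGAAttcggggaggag
CDC20: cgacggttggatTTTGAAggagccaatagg
CCNB2: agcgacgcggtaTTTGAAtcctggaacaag
KIF11: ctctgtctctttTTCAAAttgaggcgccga
TOP2A: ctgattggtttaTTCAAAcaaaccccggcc
These lie at chr16:23678848-23678877 (PLK1, plus strand), chr1:43358904-43358933 (CDC20, plus), chr15:59105105-59105134 (CCNB2, plus), chr10:92593090-92593119 (KIF11, plus) and chr17:40418030-40418059 (TOP2A, minus). The CHR letters ended at position -24 from the start in PLK1 and in CCNB2, at -23 in KIF11, at -60 in CDC20 and at -146 in TOP2A. In the second set the capitals are E2F letters, as the reverse complement in PCNA, CDT1 and MCM6.
MCM3: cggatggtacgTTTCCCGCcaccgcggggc
PCNA: cagcgtcagggGCGGGAAAaggcgtgcgtt
CDT1: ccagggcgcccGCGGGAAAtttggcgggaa
MCM6: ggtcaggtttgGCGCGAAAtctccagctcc
MCM7: ccggtcacgtggggggcgacgTTTCGCGCc
These lie at chr6:52284898-52284927 (MCM3, minus strand), chr20:5126663-5126692 (PCNA, minus), chr16:88803743-88803772 (CDT1, plus), chr2:135876511-135876540 (MCM6, minus) and chr7:100101398-100101427 (MCM7, minus). The E2F letters ended between position -167 (MCM3) and position -2 (MCM7).

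The library labelled GFP stood apart: it held 569057 estimated reads, against 2252097 to 4236396 in the other 16, so that a floor of 3 reads is 5.45 CPM there and 0.733 to 1.38 CPM elsewhere. It was the highest of the 17 libraries for 19.3% of all genes and the lowest for 22.2%. TMM scale factors, by which edgeR aligns most genes, were 1.17 in GFP, 1.1 in Neg and 1.06 in RFP, and 0.913 to 1.02 in the others. In plain CPM the median gene therefore lay at -0.12 on the log2 scale in the GOLGA8N group against the reference and at -0.09 in the LAPTM4B group, while after TMM scaling it lay at 0.01 and 0.02. Fold changes below are after TMM scaling and levels are in CPM. Of 10 erythroid markers, 9 reached 10 CPM (summed level 4875 to 9419 CPM), whereas CD3E, CD2, MS4A1 and CD79B were at 0 in all 17 libraries although the labels call the cells lymphoblasts. CD3D alone of the 8 lymphoid markers reached 10 CPM. The labelled gene was highest in its own library for TTR (11.7 CPM, against at most 1.15 elsewhere) and UBE2V1 (129 CPM, against 68.7 to 124), and CTPS2 had 16 CPM in its own against 0 to 18.3 elsewhere. LAPTM4B had 166 to 222 CPM in its 3 libraries against 156 to 306 elsewhere, GOLGA8N had at most 0.318 CPM in its own, ADORA2A and COL6A6 were at 0 in their own, and ARSF and TRPC5OS were at 0 in all 17.

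All the members together took 1.00% (TTR) to 1.31% (20-ARSF) of the reads in genes. Per length, in deposited TPM, TUBA1B was the highest member with a mean of 944 over the 17 libraries, followed by STMN1 (202), CKS1B (183), TOP2A (141), PTTG1 (114) and UBE2S (110); MCM7, at 107, led the G1/S genes. The lowest were CENPE and CCNE2, both near 0.5 TPM. The reads come from transcript ends, so dividing by length lowers long genes such as CENPF (1.4 TPM) and MKI67 (1.4 TPM), and the order is only approximate. TOP2A had its 141 TPM at a mean of 117 CPM, where CDK1 had 30.4 TPM at 123 CPM. The rank of TOP2A therefore also rests on which of its transcripts the reads were assigned to, which was not examined. Over the 16 libraries other than GFP, the 45 members at 20 CPM or more had a median coefficient of variation of 17.8%, and the 4992 genes above that floor had 23.5%. These sets differed in level, with a median of 104 CPM for the members and 49.7 CPM for all genes, and counting error weighs more at low levels. Relative to counting error alone, the spread was 2.88 times for the median member and 2.99 times for the median gene, so the members did not stand apart. Of the members, CKS1B (8.6%), PTTG1 (9.5%) and STMN1 (9.6%) varied least.

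**Figure D1:**
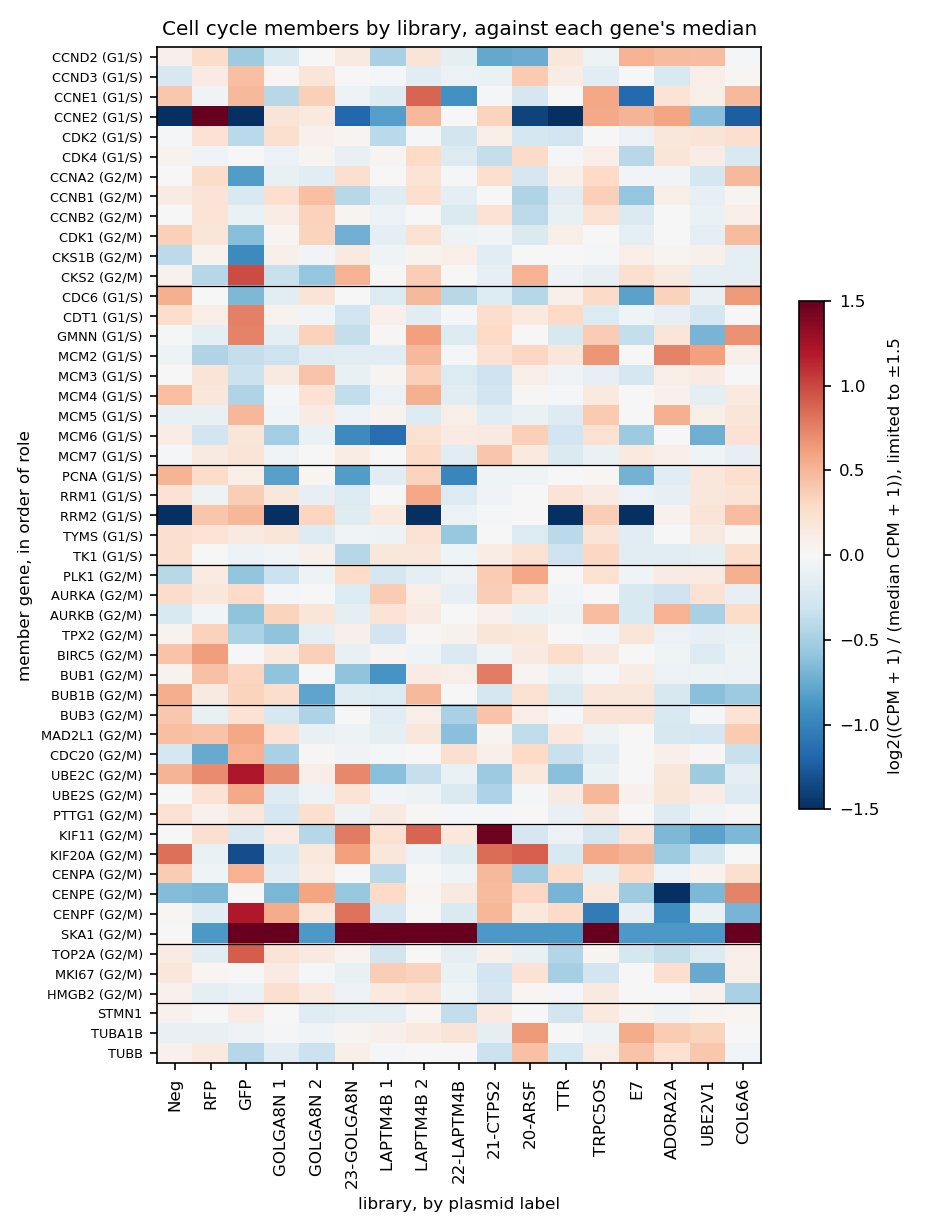
Levels of the 51 members (rows, in order of role, with lines between roles) in the 17 libraries (columns, labels as deposited), as log2 of CPM + 1 over the gene's median + 1, limited to 1.5 in each direction. RRM2 is dark blue in 5 libraries and SKA1 dark red in 8, where most other rows stay pale. CCNE2, a gene of few reads, reaches the limits in Neg, TTR, GFP and RFP. TUBA1B and TUBB lie above their medians, in pale to medium red, in 20-ARSF, E7, ADORA2A and UBE2V1.

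Summed over phases, the groups lay close together. The G1/S sum was 2541 ± 146 CPM in the reference (SD, n = 3), 2278 ± 164 in the GOLGA8N group and 2348 ± 323 in the LAPTM4B group. The G2/M sum was 3227 ± 110, 3072 ± 135 and 2999 ± 135 CPM in the same order. In plain CPM both sums were lower in either group than in the reference, but after TMM scaling the log2 ratio of the G1/S sums turned to 0.01 and 0.07, and that of the G2/M sums to 0.10 and 0.08, so no direction is read from them. The 4 prefixed libraries had 2317 ± 234 CPM of G1/S and 3052 ± 137 of G2/M, and the 13 unprefixed ones 2421 ± 189 and 3115 ± 170. Every G1/S sum counts RRM2 without the transcript described with it below. That transcript had 94.1 to 134 CPM in 5 libraries, all unprefixed (Neg, GOLGA8N 1, LAPTM4B 2, TTR and E7), and at most 2.21 CPM in the other 12. The G1/S sums and ratios given here leave it out. Counting it with RRM2 would raise the G1/S sums of those 5 libraries by these amounts and leave the other 12 almost unchanged. Whether it belongs to RRM2 was not tested. The lowest library for both phases was 22-LAPTM4B, with 2057 and 2884 CPM. The highest G2/M sum was in TRPC5OS (3539 CPM). The ratio of the G1/S to the G2/M sum ran from 0.681 in 23-GOLGA8N to 0.857 in LAPTM4B 2. In RNA of whole cultures, fewer cells in a phase and less RNA per cell cannot be told apart.

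**Figure D2:**
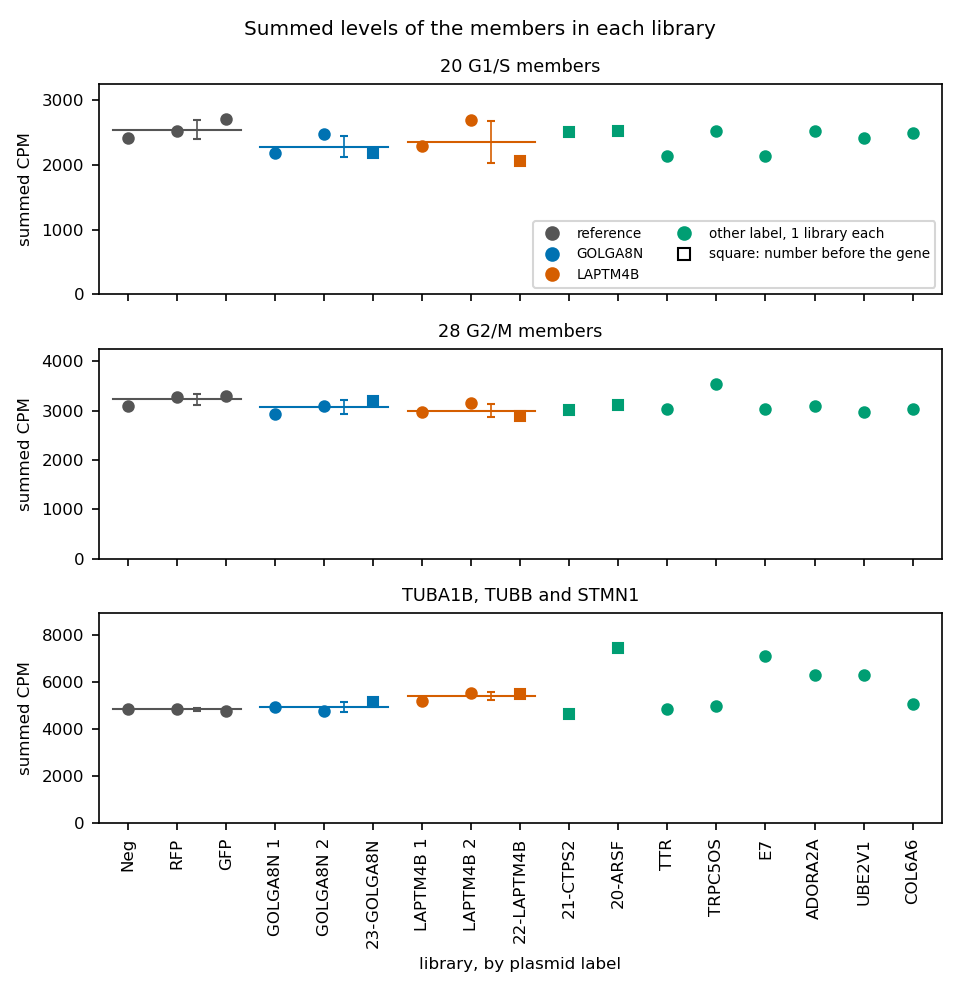
Summed CPM (vertical axes, from 0) of the G1/S members, the G2/M members and the 3 tubulin and stathmin genes in each of the 17 libraries; lines are group means with SD bars, and squares mark labels with a number before the gene. G1/S sums lie between 2057 and 2696 CPM, whereas the tubulin and stathmin sum reaches 7446 CPM in 20-ARSF and 7106 in E7. The G1/S sums leave out the transcript without a gene that is high where RRM2 is low.

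No member passed the threshold in any of the 4 comparisons. The test was edgeR's quasi-likelihood test with Benjamini-Hochberg adjustment over all genes and a threshold of 0.05. Between the GOLGA8N group and the reference, 0 of 49 members tested were called, as were 0.0168% of all 11916 genes (2 genes); 4 members had an unadjusted p under 0.05, against 5.68% of all genes. Between the LAPTM4B group and the reference it was 0 of 49, where 0% of all genes were called, with 4 members under an unadjusted 0.05 against 3.94%. Between the GOLGA8N and LAPTM4B groups it was 0 of 49, where 0.00839% of all genes were called, and no member had an unadjusted p under 0.05 against 2.04%. Between prefixed and unprefixed libraries it was 0 of 50, where 0.284% of 12319 genes were called (35 genes), with 3 members under an unadjusted 0.05 against 9.36%. The first 2 comparisons share their 3 reference libraries. The reference holds no prefixed library, whereas the GOLGA8N group holds 23-GOLGA8N and the LAPTM4B group 22-LAPTM4B. Group and prefix therefore partly coincide, and the prefix comparison uses the same libraries. Differences from the reference that rest on 23-GOLGA8N or 22-LAPTM4B cannot be told apart from the prefix. UBE2C was too low for either test, and CCNE2 too low for the tests between groups. DESeq2 also called no member, and gave 4, 4, 0 and 6 members with an unadjusted p under 0.05 in the same order of comparisons, against 6.57%, 4.43%, 2.76% and 10.7% of all genes. Without GFP, edgeR gave 9 of 50 members with an unadjusted p under 0.05 across the prefix, against 10.5% of all genes. The standard error of the log2 fold change had a median of 0.24 for G1/S members in each comparison between groups and 0.25 to 0.26 for G2/M members, and 0.17 and 0.16 across the prefix, which sets the size of difference these libraries could show.

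Few members had libraries that did not overlap between groups in CPM. Against the reference, TUBA1B was higher in all GOLGA8N libraries, as were 3.79% of all genes, and PCNA, CDT1, BUB1, MAD2L1 and AURKA were lower, as were 8.03%. In all LAPTM4B libraries TUBA1B, AURKB and CENPE were higher (3.68% of all genes) and MAD2L1, UBE2S and CDT1 were lower (6.45%). For CENPE this rests on few reads: GFP had 7.27 CPM from 4 reads, against 7.44 CPM in LAPTM4B 2. CENPF, CDK2, CCNB2, TOP2A and CCND3 were higher in all GOLGA8N than in all LAPTM4B libraries (3.93%), and TUBA1B was lower (4.42%). Across the prefix no member did so in either direction (0.203% and 0.154%).

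The medians of the phases lay near 0. In the GOLGA8N group 9 of 19 G1/S members were higher than in the reference (median log2 fold change -0.02) and 15 of 27 G2/M members (0.07), where 50.7% of all genes were higher (0.01). In the LAPTM4B group it was 10 of 19 (0.03) and 16 of 27 (0.04), where 51.9% of all genes were higher (0.02). Between the GOLGA8N and LAPTM4B groups 8 of 19 (-0.05) and 14 of 27 (0.03) were higher, where 48.4% of all genes were (-0.01). Between the prefixed and unprefixed libraries, 15 of 20 G1/S members were lower (median -0.16) and 13 of 27 G2/M members (median 0.03), where 52.2% of all genes were lower (median -0.02). The G1/S counts between groups moved with the libraries and terms used: for GOLGA8N against the reference, 4 of 19 were lower with a prefix term (median 0.08) and 7 of 20 with unprefixed labels alone (0.06). Without LAPTM4B 2, 13 of 19 were lower for LAPTM4B against the reference (-0.10), and 6 of 19 for GOLGA8N against LAPTM4B (0.07). Across the prefix the count of lower G1/S members was 13 of 20 without 23-GOLGA8N, 17 of 20 without 20-ARSF, and 16 of 19 within the GOLGA8N and LAPTM4B libraries alone. With the transcript without a gene added to RRM2, it was 16 of 20 (median -0.17). By role, the members above 0 for GOLGA8N against the reference were 9 of 11 cyclins and kinases, 5 of 9 genes of licensing and its control, 0 of 5 DNA synthesis genes, 2 of 7 mitotic kinases and partners, 1 of 5 checkpoint genes, 5 of 6 motors and kinetochore genes and 2 of 3 chromatin genes. For LAPTM4B they were 6, 7, 2, 4, 2, 3 and 2 in the same order of roles. Of the 10 erythroid markers 9 lay above 0 in each of these comparisons (median 0.42 and 0.13), 4 and 1 of them with an unadjusted p under 0.05, against 5.68% and 3.94% of all genes. The part of these markers in the members' values was not tested.

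**Figure D3:**
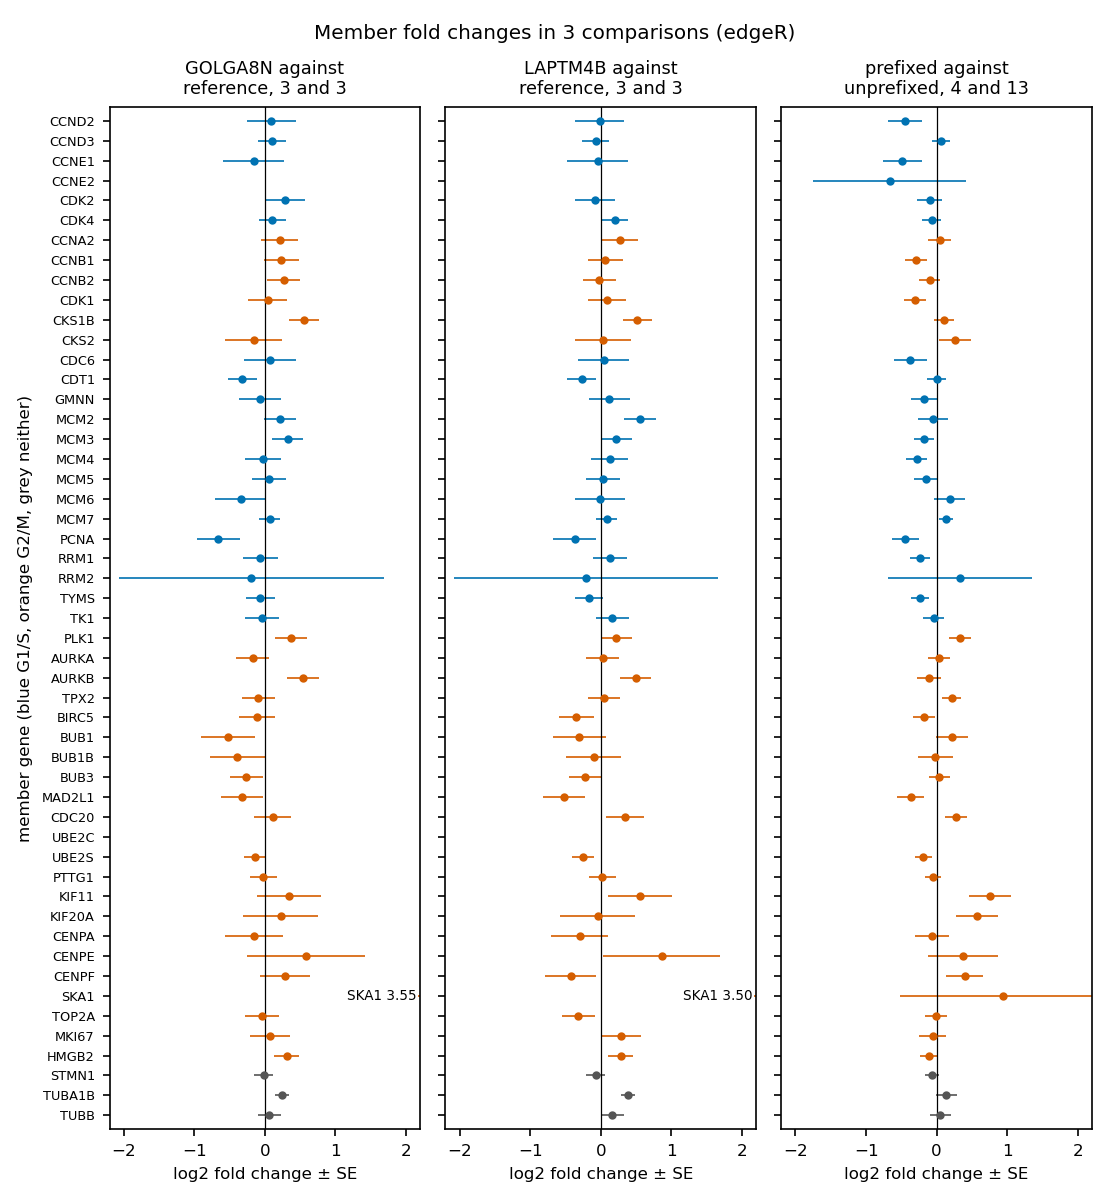
Log2 fold change (horizontal, with SE as bars) of each tested member in 3 comparisons; blue marks G1/S, orange G2/M and grey the tubulin and stathmin genes. Most bars reach or nearly reach 0, and the widest bars belong to RRM2 and SKA1, whose points for SKA1 against the reference (3.55 and 3.50) lie beyond the axis.

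Among the cyclins, kinases and their small partners, CKS1B and AURKB had the lowest p of the G2/M members against the reference. CKS1B, a subunit that binds cyclin-dependent kinases and helps to degrade p27, had 246, 336 and 165 CPM in Neg, RFP and GFP. The levels were 340 in GOLGA8N 1, 314 in GOLGA8N 2 and 355 in 23-GOLGA8N, and 309, 334 and 347 CPM in LAPTM4B 1, LAPTM4B 2 and 22-LAPTM4B. RFP lay among the values of both groups, and Neg and GFP lay below all of them. The log2 fold changes were 0.55 ± 0.209 (SE) for GOLGA8N and 0.52 ± 0.208 for LAPTM4B, with an edgeR adjusted p of 0.775 in the first. Without GFP they were 0.34 and 0.31, and without RFP 0.86 and 0.83.

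CCND3, cyclin D3, which partners CDK4 in G1, had 166, 214 and 269 CPM in the reference (Neg, RFP and GFP), 201, 223 and 197 in the GOLGA8N libraries and 193, 176 and 185 in the LAPTM4B libraries. Both groups lay inside the range of the reference. CCNB1, cyclin B1, which activates CDK1 at entry into mitosis, had 114, 120 and 89.1 CPM, then 125, 143 and 78.2, then 91.7, 125 and 95.2. The order of the libraries differed between these cyclins, and the reference overlapped both groups for each. CDK2, the partner of cyclin E, was higher in every GOLGA8N library (63.1, 56.2 and 55.2 CPM) than in the LAPTM4B libraries (40.3, 52.4 and 44), a log2 difference of 0.37 ± 0.277. CCNB2, cyclin B2, likewise lay at 82.4, 97 and 78.2 CPM against 71.3, 76.2 and 65.4 (0.29 ± 0.23). Neither difference passed the test. CCND2, cyclin D2, had 20.3, 20, 31.5 and 38.2 CPM in 20-ARSF, 21-CTPS2, 22-LAPTM4B and 23-GOLGA8N, against 23.6 to 50.3 CPM (median 36.7) in the unprefixed libraries. Its log2 difference was -0.45 ± 0.238 (edgeR adjusted p = 0.596), but it turned to 0.14 within the GOLGA8N and LAPTM4B libraries alone. CCNE1, cyclin E1, ran from 11.5 CPM in E7 and 13.9 in 22-LAPTM4B to 50.4 in LAPTM4B 2. CCNE2 stayed between 0 and 9.08 CPM.

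Of the 9 genes of origin licensing and its control, GMNN among them, 3 lay above 0 across the prefix. MCM2, a subunit of the replicative helicase (chr3:127598223-127622436, GRCh38, plus strand), had 97.1, 75.2 and 80 CPM in Neg, RFP and GFP, and 92.3, 145 and 102 CPM in LAPTM4B 1, LAPTM4B 2 and 22-LAPTM4B. The groups overlapped through Neg and LAPTM4B 1, and the log2 fold change was 0.55 ± 0.229. In the GOLGA8N libraries it had 82.7, 90.5 and 92.4 CPM (0.22 ± 0.231). The highest levels of MCM2 were in ADORA2A (173 CPM), TRPC5OS (163 CPM) and UBE2V1 (159 CPM), each a single library. CDT1, the loader that brings the helicase to origins, had 190, 170 and 268 CPM in the reference, 164, 153 and 130 in the GOLGA8N libraries and 167, 141 and 156 in the LAPTM4B libraries. Both groups lay below all 3 reference libraries in CPM. After TMM scaling the log2 fold changes were -0.32 ± 0.202 and -0.27 ± 0.202. Without GFP these shrank to -0.14 and -0.09. MCM3, another helicase subunit, had 123, 141 and 98.2 CPM in the reference and 135, 165 and 114 in the GOLGA8N libraries (0.32 ± 0.225, and 0.18 without GOLGA8N 2). MCM4 was at 103, 83.8, 90.9 and 78.8 CPM in 20-ARSF, 21-CTPS2, 22-LAPTM4B and 23-GOLGA8N, inside the 74.6 to 149 CPM of the unprefixed libraries (median 106), with a log2 difference of -0.28 ± 0.15. MCM6 was low in LAPTM4B 1 (23.3 CPM) and 23-GOLGA8N (26.7 CPM), more than 2-fold below the median of 55 CPM in the others. CDC6, GMNN, MCM5 and MCM7 had log2 fold changes within 0.2 of 0 against the reference in both groups.

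PCNA, the sliding clamp that holds DNA polymerase on the template, had the lowest p among the G1/S members for GOLGA8N. Its gene lies at chr20:5114953-5126626 (GRCh38, minus strand). It had 127, 108 and 94.6 CPM in Neg, RFP and GFP, and 50.3 CPM in GOLGA8N 1, 90.9 in GOLGA8N 2 and 49.2 in 23-GOLGA8N. All 3 GOLGA8N libraries lay below the reference, 2 of them near 50 CPM and GOLGA8N 2 close to GFP. The log2 fold change was -0.66 ± 0.308 (edgeR adjusted p = 0.87), between -1.0 without GOLGA8N 2 and -0.50 without 23-GOLGA8N. The LAPTM4B libraries had 79.7, 113 and 44.5 CPM, overlapping the reference (-0.37 ± 0.305), between -0.67 without LAPTM4B 2 and -0.09 without 22-LAPTM4B. Across the prefix, 20-ARSF and 21-CTPS2 had 84.8 and 85.3 CPM and 22-LAPTM4B and 23-GOLGA8N had 44.5 and 49.2, against 50.3 to 127 CPM (median 90.9) in the unprefixed libraries. The log2 difference was -0.44 ± 0.194 with an edgeR adjusted p of 0.452. TYMS, thymidylate synthase, had its lowest level in 22-LAPTM4B (139 CPM) and its highest in Neg (245 CPM), with a prefix difference of -0.23 ± 0.129. RRM1 and TK1, the large subunit of ribonucleotide reductase and thymidine kinase, had log2 fold changes within 0.2 of 0 against the reference.

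RRM2, the small subunit of ribonucleotide reductase, had counts that split into separate levels between libraries. Its gene lies at chr2:10120698-10131419 (GRCh38, plus strand). It was at 0 CPM in GOLGA8N 1, 1.23 in E7, 2.7 in Neg, 3.18 in LAPTM4B 2 and 3.75 in TTR, and at 93.4 (23-GOLGA8N) to 151 CPM (GFP) in the other 12 libraries. Each of the 3 groups held libraries of both levels, and the 5 low libraries were all unprefixed, with the 4 prefixed ones at 93.4 to 106 CPM. A transcript that has no gene in the annotation used here, ENST00000652660, ran the other way, with 94.1 to 134 CPM in those 5 libraries and 0.496 to 2.21 CPM in the 12. That transcript was chosen after its values were seen, and whether it belongs to RRM2 was not tested. The sum of the pair was 94.7 to 153 CPM, with a mean of 122 ± 18.2 (SD, n = 17), where RRM2 alone had 86.8 ± 58.6. The standard error of the RRM2 log2 fold change between GOLGA8N and the reference was 1.88 for the gene alone (-0.19) and 0.21 for the sum (-0.12). Across the prefix, the gene alone lay at 0.33 ± 1.02 and the sum at -0.30 ± 0.131 (edgeR adjusted p = 0.45), which turns the direction. The sum had 102 ± 5.55 CPM in the 4 prefixed and 128 ± 16.3 CPM in the 13 unprefixed libraries.

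**Figure D4:**
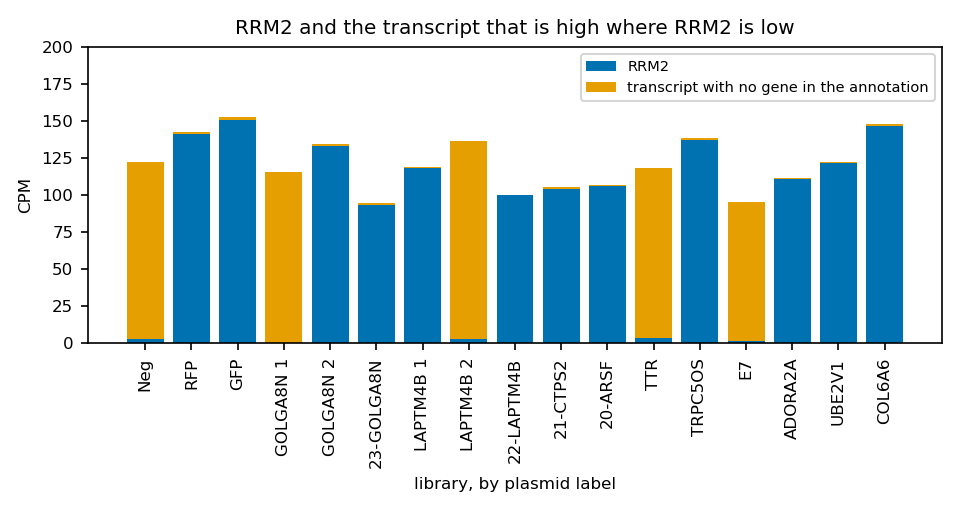
CPM (vertical, from 0) of RRM2 in blue and of the transcript without a gene in orange, stacked for each of the 17 libraries. In Neg, GOLGA8N 1, LAPTM4B 2, TTR and E7 nearly the whole bar is the transcript without a gene in the annotation used here. The height of the bars stays between 94.7 and 153 CPM.

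Of the mitotic kinases, AURKB, the kinase of the chromosomal passenger complex, had 97.4, 111 and 74.6 CPM in Neg, RFP and GFP. It had 144, 130 and 104 CPM in the GOLGA8N libraries, where 23-GOLGA8N overlapped the reference, and 131, 124 and 114 in the LAPTM4B libraries, all above it. The log2 fold changes were 0.54 ± 0.222 (edgeR adjusted p = 0.84) and 0.49 ± 0.222. PLK1, the Polo-like kinase needed for mitotic entry and spindle assembly, had 131, 192 and 116 CPM in the reference, 141, 167 and 213 in the GOLGA8N libraries and 148, 158 and 166 in the LAPTM4B libraries, with RFP among or above both. The prefixed libraries 20-ARSF, 21-CTPS2, 22-LAPTM4B and 23-GOLGA8N had 262, 229, 166 and 213 CPM, against 116 to 255 CPM (median 169) in the unprefixed ones. The ranges overlapped, and the log2 difference of 0.34 ± 0.156 had an edgeR adjusted p of 0.499. BIRC5 (survivin), BUB1, BUB1B and TPX2 had their largest fold change against the reference in BUB1 for GOLGA8N, at -0.52 ± 0.379, and AURKA lay within 0.2 of 0 in both groups.

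In the spindle checkpoint, MAD2L1, which binds and holds back CDC20 until chromosomes are attached, had 58, 56.8 and 63.6 CPM in the reference. It had 49.1, 39 and 40 CPM in the GOLGA8N libraries and 38.2, 47.5 and 26.9 in the LAPTM4B libraries, so both groups lay below the reference in CPM. The log2 fold changes after TMM scaling were -0.32 ± 0.297 and -0.52 ± 0.296, the second being -0.34 without 22-LAPTM4B. In 20-ARSF, 21-CTPS2, 22-LAPTM4B and 23-GOLGA8N it had 32, 43.2, 26.9 and 40 CPM, overlapping the 35.3 to 63.6 (median 46.9) of the unprefixed libraries, with a log2 difference of -0.37 ± 0.189 and an edgeR adjusted p of 0.557. CDC20, the activator of the anaphase-promoting complex, had 93.5, 65.9 and 162 CPM in the reference, 79.7, 113 and 108 in the GOLGA8N libraries and 110, 113 and 132 in the LAPTM4B libraries. The reference spanned both groups, with GFP highest and RFP lowest. PTTG1 (securin) stayed between 138 and 194 CPM in all 17 libraries. UBE2S, the ubiquitin-conjugating enzyme that extends chains on cyclin B, ran from 548 CPM in 21-CTPS2 to 1124 in GFP and 1072 in TRPC5OS. UBE2C, its partner enzyme, had at most 3.64 CPM and was not tested. The counts leave out reads of transcripts without a gene in the annotation used here. Whether such reads belong to UBE2C or CCNE2 was not examined, so their low counts need not be low levels.

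KIF11, the kinesin that pushes spindle poles apart, had 14.3, 49.4, 19.4 and 30.3 CPM in 20-ARSF, 21-CTPS2, 22-LAPTM4B and 23-GOLGA8N, against 9.48 to 32.5 CPM (median 16.3) in the unprefixed libraries. Only 21-CTPS2 lay above all unprefixed libraries. The log2 difference was 0.75 ± 0.3, the lowest p of any member in that comparison, with an edgeR adjusted p of 0.397; without 21-CTPS2 it was 0.37. CENPF, a kinetochore protein of G2 cells, had 48.4, 36.7 and 57.9 CPM in the GOLGA8N libraries and 27.3, 32.6 and 28.1 in the LAPTM4B libraries, which did not overlap, with a log2 difference of 0.71 ± 0.351 that did not pass the test. The reference libraries, at 33.3, 29.3 and 76.4 CPM, overlapped both groups, with LAPTM4B 1 and 22-LAPTM4B below all of them. SKA1, of the complex that couples kinetochores to microtubules, was above 25 CPM in 5 libraries (41.7 in TRPC5OS, 37.6 in 23-GOLGA8N, 36 in 22-LAPTM4B, 33.3 in GOLGA8N 1 and 26.8 in LAPTM4B 1) and under 3 reads in 9. It had 12.1 CPM in GFP, 8.28 in COL6A6 and 4.82 in LAPTM4B 2. The count of SKA1 was high and low within the GOLGA8N group, and its log2 fold change against the reference of 3.55 ± 2.06 is not a level of the group. CENPE and KIF20A stayed under 30 CPM in every library, and CENPA ran from 14.2 CPM in 20-ARSF to 30.9 in GFP.

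Of the genes of mitotic chromatin, TOP2A, the topoisomerase that untangles sister chromosomes, had 127, 104 and 218 CPM in Neg, RFP and GFP. It had 134, 128 and 121 CPM in the GOLGA8N libraries and 96, 116 and 106 in the LAPTM4B libraries, which did not overlap with each other (0.28 ± 0.232). HMGB2, a chromatin protein of dividing cells, had 185, 161 and 165 CPM, then 209, 196 and 166, then 196, 202 and 169 in the same groups. Its log2 fold changes were 0.31 ± 0.183 for GOLGA8N (edgeR adjusted p = 0.926) and 0.28 ± 0.183 for LAPTM4B, with 1 library of each group inside the range of the reference. MKI67, the proliferation marker Ki-67, ran from 26.6 CPM in UBE2V1 to 59.2 in LAPTM4B 1.

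TUBA1B, an alpha-tubulin that forms the microtubules, had the lowest standard error of the members in the comparisons between groups. Its gene lies at chr12:49127782-49131397 (GRCh38, minus strand). It had 3501, 3513 and 3569 CPM in Neg, RFP and GFP, then 3707, 3655 and 3905 in the GOLGA8N libraries, and 3990, 4204 and 4342 in the LAPTM4B libraries. The groups did not overlap, in the order reference, GOLGA8N and LAPTM4B. The log2 fold changes were 0.24 ± 0.102 for GOLGA8N (edgeR adjusted p = 0.848) and 0.38 ± 0.102 for LAPTM4B (edgeR adjusted p = 0.999, and 0.0503 with DESeq2), and the first group lay at -0.14 ± 0.102 from the second. Neither the first nor the second fold change passed the threshold. The means were 3527 ± 36.5, 3756 ± 132 and 4179 ± 178 CPM (SD, n = 3 each), a smaller difference than after scaling, since the reference libraries had the highest scale factors. The libraries with the highest TUBA1B were of other labels: 5921 CPM in 20-ARSF, 5570 in E7, 4936 in ADORA2A and 4779 in UBE2V1, against 3413 to 4342 in the other 13. TUBB, the main beta-tubulin, was highest in the same 4 libraries, at 823, 813, 710 and 801 CPM, against 451 to 674 in the other 13. STMN1, stathmin, which destabilises microtubules, was not: it had 665 to 723 CPM in those 4 and 542 to 781 in the others. TUBA1C, an alpha-tubulin outside the list that was chosen after the data were seen, had 1396, 1407, 1490 and 1182 CPM in the 4 libraries, but also 1250 in 22-LAPTM4B. Other tubulins did not rise in all 4. TUBB4B had 425, 376, 571 and 593 CPM there, against 348 to 578 in the other 13. TUBB6 had 165, 116, 134 and 149 CPM against 131 to 204, and TUBA4A had 88.5, 50, 85 and 107 against 52.7 to 104. TUBA1A had 169, 173, 38.5 and 21.1 CPM against 38.6 to 226. Alpha-tubulin genes resemble each other so closely that the split of reads among them, and so each single level, is uncertain. The 4 labels have 1 library each, so these levels have no replicate check. Of the 4 libraries, 20-ARSF, E7 and ADORA2A were also the most deeply sequenced (4236396, 4162542 and 4154398 reads) and UBE2V1 was not (2727970 reads); the part of depth in these levels was not tested.

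**Figure D5:**
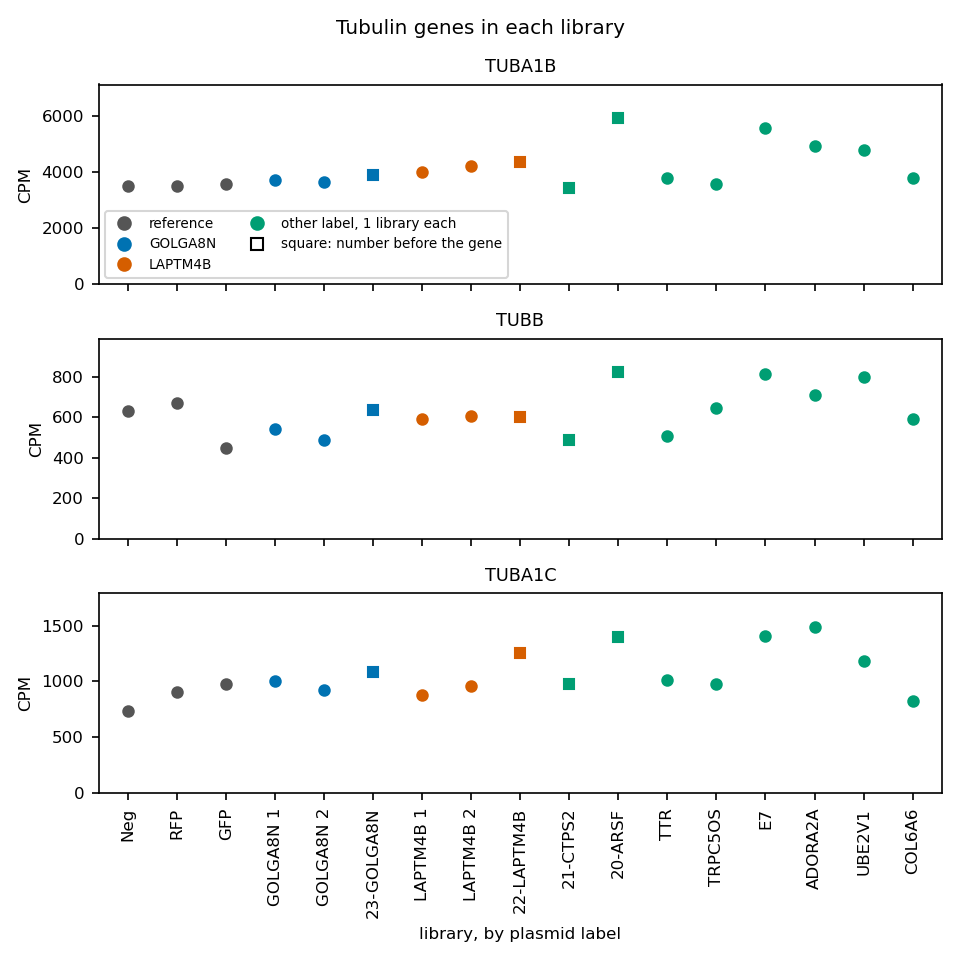
CPM (vertical, from 0) of TUBA1B, TUBB and TUBA1C in each of the 17 libraries; colours mark the groups and squares the labels with a number before the gene. In TUBA1B and TUBB the points of 20-ARSF, E7, ADORA2A and UBE2V1 lie above those of the other 13 libraries.

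Few single libraries put a member far from its usual level. At a mean of 20 CPM or more, PCNA in 22-LAPTM4B, CCNE1 in 22-LAPTM4B and E7, MCM6 in LAPTM4B 1 and 23-GOLGA8N, and CENPF in TRPC5OS and ADORA2A were at least 2-fold below the median of the other libraries, besides RRM2. CKS2 (63.6 CPM) and CENPF (76.4 CPM) were at least 2-fold above it in GFP, where 19.5% of the 5009 genes at that level were 2-fold away in either direction. The same share was 3.19% in 22-LAPTM4B, 5.03% in 23-GOLGA8N, 1.96% in LAPTM4B 1, 2.02% in E7, 4.45% in TRPC5OS and 1.8% in ADORA2A. In the other libraries with low RRM2 it was 1.7% (Neg), 1.86% (TTR), 2.62% (LAPTM4B 2) and 2.81% (GOLGA8N 1). Among the 50 members tested across all libraries, 22-LAPTM4B was the lowest for 7 and the highest for none, where it was lowest for 7.07% and highest for 3.95% of all genes. Leaving out GFP, 20-ARSF was the highest library for 8 of the 50 members and for 4.33% of all genes.

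Other genes of the cycle, listed beside the members, gave no call either. The lists were other S phase genes (32 genes), other G2/M genes (36), the replication fork (32), cohesin, condensin and the anaphase-promoting complex (26), transcription factors of the cycle (17) and inhibitors (20). By edgeR 0 of them were called in each of the 4 comparisons. Between GOLGA8N and the reference, 1, 2, 2, 0, 0 and 1 of them had an unadjusted p under 0.05 in that order of lists, against 5.68% of all genes. Between LAPTM4B and the reference it was 0, 0, 1, 0, 0 and 0, against 3.94%. CHEK2, a checkpoint kinase, had the lowest p of the first: 14.4 CPM in GOLGA8N 1, 10.3 in GOLGA8N 2 and 13.3 in 23-GOLGA8N, against 33, 24.5 and 54.5 in Neg, RFP and GFP (log2 fold change -1.35 ± 0.439, edgeR adjusted p = 0.698). CLSPN, claspin, which relays replication stress to CHEK1, had 21.5, 11.8 and 21.6 CPM against 29.3, 43.2 and 73.5 (-1.19 ± 0.411, edgeR adjusted p = 0.739). Both were lower in all 3 libraries than in the reference, as were 8.03% of all genes, and GFP, the shallowest library, was the highest of the reference for both. TACC3, a spindle protein, had 59.3, 78.7 and 77.3 CPM against 54.2, 56.3 and 36.4 (0.66 ± 0.267, edgeR adjusted p = 0.823). It was higher without overlap, as were 3.79% of all genes. Between GOLGA8N and LAPTM4B, only inhibitors had an unadjusted p under 0.05, namely CHEK2 (-0.92 ± 0.429) and PKMYT1, a kinase that restrains CDK1 (0.45 ± 0.211). Of all genes, 2.04% had one.

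Between prefixed and unprefixed libraries, 27 of 32 replication fork genes were lower (median log2 difference -0.22), where 52.2% of all genes were, and the count was 23 to 28 under the other settings. In the same comparison 16 of 32 other S phase genes (median -0.03) and 11 of 15 tested transcription factors (median -0.11) were lower. PRIM2, the large subunit of primase, had 4.4, 5.08, 2.11 and 9.17 CPM in 20-ARSF, 21-CTPS2, 22-LAPTM4B and 23-GOLGA8N, against 7.21 to 40 CPM (median 11.6) elsewhere (-1.40 ± 0.454, edgeR adjusted p = 0.246). SLBP, which binds the end of histone mRNA, had 22.5, 22.1, 20.2 and 12 CPM against 21.4 to 40.5 (median 30.3; -0.64 ± 0.245, edgeR adjusted p = 0.37). Higher in the prefixed libraries were BTG1, an antiproliferative gene, at 47.4, 71.2, 61.3 and 57 CPM against 16.4 to 65.1 (median 30.5), and HJURP, the chaperone of CENPA, at 45.5, 53.4, 49.5 and 64.3 CPM against 5.45 to 48.3 (median 31.9). BTG1 had a log2 difference of 0.85 ± 0.226 and an edgeR adjusted p of 0.102, but 0.0346 with DESeq2 and 0.0242 without the filter on low counts, in a range up to 0.383 over the alternatives. HJURP had 0.81 ± 0.245 and an edgeR adjusted p of 0.193, but 0.0306 without the filter, in a range up to 0.545. Across the prefix 3, 4, 2, 2, 0 and 3 genes of the lists had an unadjusted p under 0.05, against 9.36% of all genes. Single markers were called in this comparison too, without a shared direction of their lists. Of the 10 erythroid markers 5 lay higher and 5 lower (median 0.01), and of the 5 epithelial markers tested 3 lay higher and 2 lower (median 0.29), 1 in each direction with an unadjusted p under 0.05. HBE1, embryonic globin, was called (0.83 ± 0.157, edgeR adjusted p = 0.0191), as was the epithelial marker KRT19 (0.58 ± 0.132, edgeR adjusted p = 0.0382). The erythroid markers summed to 5825 to 8682 CPM in the prefixed and 4875 to 9419 CPM in the unprefixed libraries; their part in the values of the cycle genes was not tested.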

How the data were processed

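The 17 deposited tables list, per the file headers, estimated counts (Salmon's expected reads, which need not be whole) and TPM for 228297 transcripts. The deposited TPM were made by the authors' quantifier from the same reads. Per the submitters' processing notes, STAR, Salmon 0.7.2, featureCounts and UMI-tools were used with GRCh38. The sources used here do not give the strand setting or whether molecular identifiers were collapsed. The counts of all transcripts of a gene in GENCODE 29 were added (205336 transcripts matched; 3.32% to 3.6% of reads did not) and rounded for tests. CPM were computed from them.

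The 3 groups (9 libraries) were fitted together, and the prefix over all 17, with edgeR 4.0.16 in R 4.3.3 (TMM, filterByExpr, robust quasi-likelihood). P-values were Benjamini-Hochberg adjusted over all genes, with a threshold of 0.05; the SE is the log2 fold change over the square root of F. DESeq2 1.42.0, RLE scaling, no filter, other sets of libraries, prefix and replicate terms were alternatives. The scripts were tested on simulated data. Floors of 3 reads cover counting error only. Genes overlapping on opposite strands are uncertain.

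Members and lists were chosen with earlier results of these data known. Values by library are given for any called member, the 3 lowest p of each phase per comparison, and 1 member of each role; for each other list, the lowest p. Other members are given by ranges, some named after their values were seen.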

Additional observations from a re-analysis of the deposited data

How the results depend on the processing

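No member was called in any of the 14 fits for GOLGA8N against the reference, 14 for LAPTM4B against the reference, 16 for GOLGA8N against LAPTM4B and 12 for the prefix; the lowest adjusted p of a member was 0.498 (CKS1B), 0.0503 (TUBA1B, DESeq2), 0.909 (MCM2) and 0.23 (KIF11, without 20-ARSF). Counts over all genes did move, and the cause was not tested. GOLGA8N against the reference, with 2 genes called, gave 12 with DESeq2, 1 with RLE scaling, 42 without the filter, 18 with all 17 libraries, 7 with unprefixed labels, 6 with a prefix term, and 1 (without RFP, GFP or GOLGA8N 1) to 5 (without 23-GOLGA8N) leaving out 1 library. LAPTM4B against the reference, with 0, gave 3 with DESeq2, 25 without the filter, 4 with all 17 libraries, 2 with unprefixed labels, and 0 to 1 (without Neg or 22-LAPTM4B) leaving out 1 library. GOLGA8N against LAPTM4B, with 1, gave 3 with DESeq2, 9 without the filter, 4 with all 17 libraries, 2 with unprefixed labels, and 1 to 3 (without GOLGA8N 1) leaving out 1 library, with 2 without 22-LAPTM4B, 23-GOLGA8N or GOLGA8N 2. The prefix, with 35, gave 110 with DESeq2, 557 without the filter, 20 without the reference libraries, 73 within the GOLGA8N and LAPTM4B libraries, and 2 (without 22-LAPTM4B), 7 (without 23-GOLGA8N), 11 (without 21-CTPS2) or 29 (without 20-ARSF) leaving out 1 library.

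The numbers 1 and 2 of the GOLGA8N and LAPTM4B titles are not said to pair libraries. Deviations of same-numbered libraries correlated at 0.12 across 11916 genes, which are not independent, with only 2 pairs. With the number as a replicate block 2 genes were called, and 2 without the block in the same 4 libraries, none a member. PCNA in GOLGA8N against LAPTM4B (-0.29) lay between -0.64 without GOLGA8N 2 and 0.030 without LAPTM4B 2, and CCND2 in the prefix comparison turned from -0.45 to 0.14 within the GOLGA8N and LAPTM4B libraries. Adding the transcript without a gene to RRM2, and summing without RRM2 and SKA1 (values not given here), were chosen after seeing the data. GFP, with 569057 reads, limits every comparison with the reference.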
